A study of Mus musculus with 288 samples.

Results

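Skeletal muscle was followed over 2 days of constant darkness on 24 arrays, which are the arrays whose labels name skeletal muscle as the source, out of 288 in the series. The 24 arrays lie 2 h apart from circadian time (CT) 18 to CT64, on a clock whose hour 0 is the time at which the lights used to go on, so that CT12 to CT24 is the subjective night. All 12 tissues came from C57/BL6 mice kept for 1 week in 12 h of light and 12 h of darkness and then in constant darkness, and every array held RNA pooled from 3 mice for that organ and time. The labels give neither the muscle that was dissected nor the sex or age of the mice. Heart, the other striated muscle of the series, and the mean of the other 11 tissues served as references, each tissue with 24 arrays of the same times.

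Values are the authors' processed intensities, used here on the log2 scale for 19938 genes. A wave with a period of 24 h was fitted to each gene, and a gene is called rhythmic where the adjusted p of limma's moderated F test over all genes is under 0.05. Fold means the fitted peak-to-trough fold on the linear scale with its 95% interval, and peak times of both days are given as 1 time between CT0 and CT24. With 1 array per time point there are no replicates, so a p-value here reflects how far the pools scatter about a wave, and precision is limited by how few arrays there are.

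Muscle fibres of mice carry their own copy of the molecular clock, in which BMAL1 (encoded by Arntl) and CLOCK switch on the Per, Cry and Nr1d genes, whose products in turn hold them back. In muscle this clock is known to act on fuel use and on the muscle-specific transcription factor Myod1. Fast fibres burn mainly glucose and glycogen, slow fibres burn mainly fat and hold their own set of myosins and troponins, and a dissected muscle also holds vessels, nerve, fat and, where it is taken with it, lymph node.

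The promoters of 7 genes are shown because they carry the letters that clock proteins or a muscle factor are known to read. They are RefSeq sequences of build GRCm38.p6 from 250 bases before to 50 bases after a gene's start, 5′ to 3′. Capitals mark E-boxes (CACGTG, read by BMAL1 with CLOCK) in Ciart, Per1 and Pfkfb3, D-boxes (TTATGNAA, read by the protein of Dbp and its relatives) in Per1 and Per3, ROR elements (TAGGTCA, read by the protein of Nr1d1 and by the ROR receptors) in Arntl and Nfil3, and a MEF2 site (TAAAAATAG) in Tnni1, searched on both strands.
Ciart, chr3:95882179-95882478, minus strand: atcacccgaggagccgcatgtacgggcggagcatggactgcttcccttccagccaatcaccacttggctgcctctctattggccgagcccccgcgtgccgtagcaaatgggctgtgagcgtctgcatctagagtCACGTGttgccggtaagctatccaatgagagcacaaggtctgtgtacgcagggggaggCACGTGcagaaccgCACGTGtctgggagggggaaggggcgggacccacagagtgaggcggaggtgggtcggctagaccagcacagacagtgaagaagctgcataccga
Per1, chr11:69098699-69098998, plus strand: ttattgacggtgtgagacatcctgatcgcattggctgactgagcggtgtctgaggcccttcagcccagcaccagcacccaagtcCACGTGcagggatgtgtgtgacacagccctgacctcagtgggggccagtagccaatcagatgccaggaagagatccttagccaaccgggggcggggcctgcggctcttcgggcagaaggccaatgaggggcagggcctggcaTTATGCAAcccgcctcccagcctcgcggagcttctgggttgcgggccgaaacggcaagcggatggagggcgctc
Per3, chr4:151044616-151044915, minus strand: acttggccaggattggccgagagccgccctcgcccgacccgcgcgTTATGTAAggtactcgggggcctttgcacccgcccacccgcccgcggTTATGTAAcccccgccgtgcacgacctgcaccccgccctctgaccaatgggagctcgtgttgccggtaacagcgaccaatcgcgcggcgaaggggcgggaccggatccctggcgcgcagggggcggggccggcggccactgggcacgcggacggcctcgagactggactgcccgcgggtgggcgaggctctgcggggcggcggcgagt
Arntl, chr7:113207261-113207560, plus strand: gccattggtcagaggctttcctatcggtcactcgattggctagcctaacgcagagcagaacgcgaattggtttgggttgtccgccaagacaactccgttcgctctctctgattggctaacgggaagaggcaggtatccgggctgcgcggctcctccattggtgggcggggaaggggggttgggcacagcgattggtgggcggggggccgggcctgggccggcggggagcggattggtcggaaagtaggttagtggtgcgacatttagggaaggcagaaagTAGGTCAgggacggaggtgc
Nfil3, chr13:52980990-52981289, minus strand: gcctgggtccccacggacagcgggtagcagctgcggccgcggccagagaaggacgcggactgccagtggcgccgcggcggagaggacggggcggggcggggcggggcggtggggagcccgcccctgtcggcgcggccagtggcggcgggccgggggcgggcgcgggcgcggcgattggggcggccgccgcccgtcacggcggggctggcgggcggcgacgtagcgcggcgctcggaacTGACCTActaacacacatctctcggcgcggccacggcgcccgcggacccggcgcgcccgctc
Pfkfb3, chr2:11502041-11502340, minus strand: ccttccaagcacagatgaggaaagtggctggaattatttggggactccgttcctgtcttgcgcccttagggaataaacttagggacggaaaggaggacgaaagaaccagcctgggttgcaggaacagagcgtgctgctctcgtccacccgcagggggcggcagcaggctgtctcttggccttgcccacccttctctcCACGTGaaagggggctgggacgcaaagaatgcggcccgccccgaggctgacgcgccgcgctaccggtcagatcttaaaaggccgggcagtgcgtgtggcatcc
Tnni1, chr1:135799171-135799470, plus strand: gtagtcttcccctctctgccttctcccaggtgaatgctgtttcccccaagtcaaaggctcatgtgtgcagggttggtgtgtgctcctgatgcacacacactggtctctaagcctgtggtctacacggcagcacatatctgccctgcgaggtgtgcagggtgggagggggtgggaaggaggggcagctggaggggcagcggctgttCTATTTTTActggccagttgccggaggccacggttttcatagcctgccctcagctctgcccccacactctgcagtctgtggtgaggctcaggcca
An E-box stood in 4 of 15 core clock promoters (26.7%), against 7.15% of all 32851 promoters, and a D-box in 2 of 15 (13.3%), against 3.38%. A ROR element stood in 2 of 15 clock output promoters (13.3%), against 2.61% of all, and a MEF2 site in 3 of 20 promoters of slow contractile genes, against 0.493% of all. Those 3 belong to 2 genes, since the site of Tnni1 lies in both of its overlapping promoters and is counted for each. Among the other pairs, an E-box stood in 4 of 15 clock output promoters and in 1 of 20 promoters of slow contractile genes. A ROR element stood in 1 of 15 core clock promoters, and a MEF2 site in 1 of 15 clock output promoters. No other pair of these lists and sites had a match. Over the promoters of all genes called in muscle the shares were 10.5% for the E-box, 2.79% for the D-box and 2.07% for the ROR element. Over the promoters of all measured genes they were 8.24%, 3.004% and 2.25%. A match is only a description of these letters in this window.

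The mean of the fibre markers of the labelled tissue was steady while the means of several other sets of genes were not. The mean of 14 skeletal muscle fibre markers lay between 13.41 and 13.49 on all 24 arrays, far above the highest mean of another tissue (9.64, brown adipose). Slow-fibre markers, the myosins and troponins of oxidative fibres, had means of 9.43 to 9.94 on the 9 arrays of CT18 to CT24, CT36 and CT42 to CT48, and of 10.61 to 11.71 on the other 15. Lymphocyte markers had means of 6.23 to 7.12 on the 7 arrays of CT20 to CT24 and CT42 to CT48, and of 5.70 to 5.92 on the other 17, and adipocyte markers had means of 9.04 to 9.61 on those 7 and of 8.25 to 8.92 on the rest. The 7 arrays high in lymphocyte and adipocyte markers all lie between CT20 and CT24 or between CT42 and CT48, while at CT18, the same clock hour as CT42, lymphocyte markers stood at 5.86, against 6.90 at CT42. The lowest slow-fibre mean, 9.43, was that of CT36. These groups of 9 and 7 arrays were named after the marker values were seen, so the gaps between groups follow from that choice. Whether fewer cells of a type or less RNA per cell lies behind such a change cannot be told apart in bulk RNA.

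**Figure D1:**
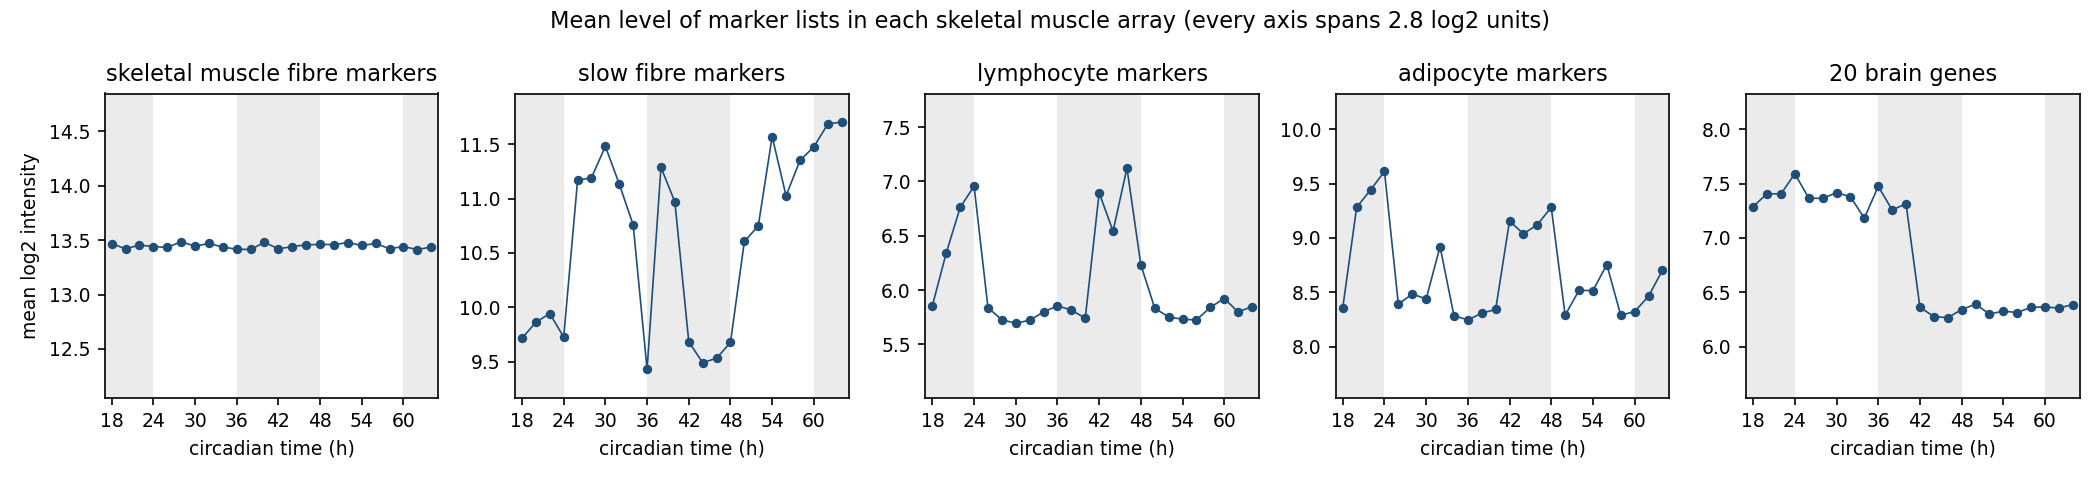
Mean log2 intensity of 4 marker lists and of 20 brain genes on each of the 24 skeletal muscle arrays (points joined by lines, x axis in circadian time, subjective night shaded). Skeletal muscle fibre markers stay between 13.41 and 13.49, slow-fibre markers span 9.43 to 11.71, lymphocyte and adipocyte markers are high together at CT20 to CT24 and CT42 to CT48, and the brain genes step down between CT40 and CT42.

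Every array of the first day also differed from every array of the second in genes of brain. The mean of 20 genes of neurons and glia, a list drawn up after the values were seen, was 6.27 to 6.39 on the 12 arrays of CT42 to CT64 and 7.18 to 7.59 on the 12 arrays of CT18 to CT40, without overlap. In the other 11 tissues the medians of this mean on the 2 days lay within 0.05 of each other. Single arrays stood apart as well: hepatocyte markers reached 7.80 at CT22 against a median of 6.33, keratinocyte markers lay between 7.07 and 7.38 at CT20, CT48, CT56 and CT58 against a median of 5.99, and the array of CT24 had a median correlation of 0.988 to the others, against 0.994 over the tissue. By the criterion given under the processing steps, 8 of the 24 arrays stood apart (CT20, CT22, CT24, CT42, CT46, CT48, CT56 and CT58). Each wave is therefore also given from a fit that holds the lymphocyte, adipocyte and slow-fibre means as covariates, called the marker fit here. These means themselves change with the clock hour, so the fit can also take out part of a gene's own wave of like or opposite phase. A gene not kept there may still have a wave.

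A 24 h wave was called for 1020 of 19938 genes (5.12%), and for 270 (1.35%) the fold was above 1.5. Without adjustment 3175 genes had a p under 0.05, and the median fold over all genes was 1.07. Peak times were unevenly spread: 483 of the 1020 called genes (47.4%) peaked between CT20 and CT24 and 105 between CT8 and CT10, while the 10 h from CT10 to CT20 held 146. The marker fit called 353 genes (1.77%), among them 288 of the 1020, which is 28.2% of the first list and 81.6% of the second. Of the genes peaking between CT20 and CT24 it kept 80 of 483, and of those peaking between CT8 and CT10 it kept 12 of 105. Between CT10 and CT20 it kept 71 of 146. The marker means peak or dip near CT20 to CT24, so lower shares in the first 2 windows can follow from the fit alone. The called lymphocyte and adipocyte markers peaked between CT18 and CT24 and the called slow-fibre markers between CT6 and CT12, and their part in the waves of other genes was not tested beyond these fits. Without the 8 arrays of CT18 to CT24 and CT42 to CT48, a choice made after seeing the data, 360 genes were called, 265 of them among the 1020. Many called genes have their peak or trough in those hours, so a gene not called there may still have a wave.

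**Figure D2:**
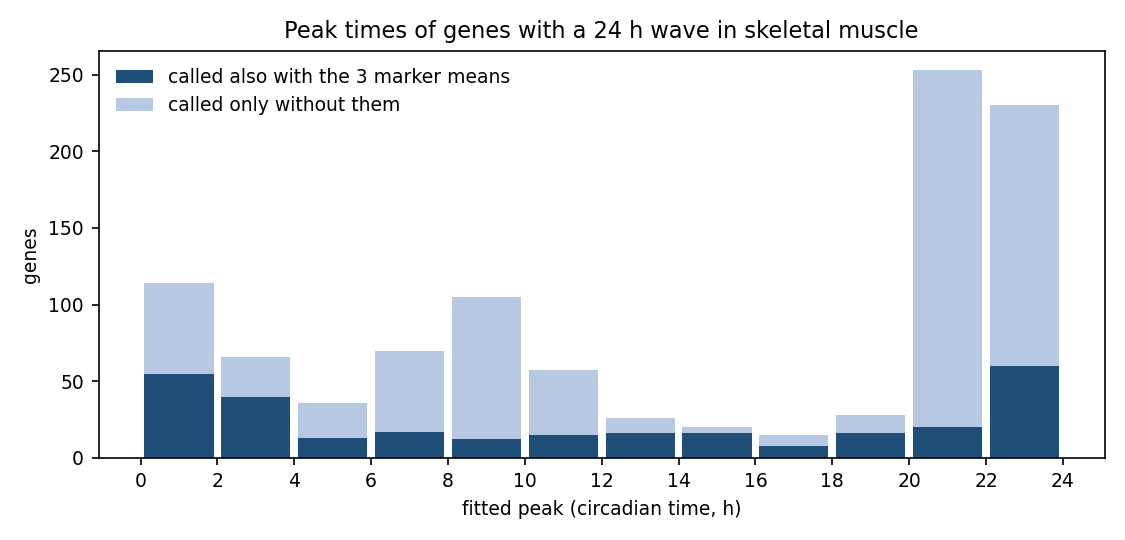
Number of genes called rhythmic in skeletal muscle by fitted peak time in bins of 2 h (x axis, circadian time), split into those called also with the 3 marker means as covariates (dark) and those called only without them (light). The bins of CT20 to CT24 hold 483 genes, of which 80 are dark, while most genes peaking between CT12 and CT18 (40 of 61) are dark. The marker means themselves peak or dip near CT20 to CT24, which can lower the dark share there.

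Of 13 measured core clock genes 12 were called, against 5.12% of all genes, and 9 of the 12 also in the marker fit. Among the activators, Arntl (probe set 10556463, chromosome 7 from 113178471 to 113314126) ranged from 7.10 at CT58 to 9.26 at CT50, with a median of 8.46. It was highest at CT22 and CT50 and lowest at CT34 and CT58, which gave a fold of 3.95 (3.30 to 4.72), a peak at CT22.7 (SE 0.243 h) and an adjusted p of 2.47e-10. Its partner Clock was lower in size, with log2 values from 8.97 at CT60 to 9.83 at CT50, with a median of 9.55, a fold of 1.52 (1.41 to 1.65) and a peak at CT0.351 (adjusted p = 1.6e-07). The marker fit enlarged both waves, to a fold of 5.74 for Arntl and 1.60 for Clock.

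The called repressors other than Cry1 peaked between CT4.54 (Nr1d1) and CT11.3 (Per2), in the subjective day. Nr1d1 (probe set 10390691, chromosome 11 from 98767932 to 98775377), whose product REV-ERB alpha represses Arntl, ranged from 9.29 at CT40 to 11.78 at CT26, with a median of 10.78. It was highest at CT26 and CT52, with a fold of 4.10 (3.16 to 5.31) and a peak at CT4.54 (SE 0.341 h, adjusted p = 1.23e-07). Ciart (probe set 10373452, chromosome 3 from 95878500 to 95882257), which binds BMAL1 and blocks it, had the largest fold of the clock, 6.34 (4.84 to 8.32), from log2 values of 6.44 at CT24 to 9.50 at CT32, with a median of 7.30 (peak CT8.32, adjusted p = 1.83e-09). In the marker fit the folds were 3.91 for Nr1d1 and 7.47 for Ciart, and both were called.

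The period genes, whose proteins carry the negative arm of the loop, followed. Per1 ranged from 7.36 at CT48 to 9.45 at CT30, with a median of 8.45, and had a fold of 2.91 (2.30 to 3.68) and a peak at CT9.63. Per3 had a fold of 2.44 (2.17 to 2.74) at CT9.68, and Per2 one of 2.51 (2.24 to 2.81) at CT11.3. All were called in the marker fit, with adjusted p = 0.00424 for Per1, 9.51e-06 for Per3 and 4.17e-08 for Per2. Nr1d2 and Bhlhe41 had folds of 1.51 and 1.59 and kept a call there by a small margin (adjusted p = 0.0434 and 0.0471).

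Cry1 and Cry2, the cryptochrome repressors, and Bhlhe40 were the 3 called members that the marker fit did not keep. Cry1 spanned only 7.61 to 8.09 (fold 1.19, interval 1.11 to 1.28, peak CT18.6, adjusted p = 0.00778, 0.116 in the marker fit). Cry2 had a fold of 1.55 (1.36 to 1.76) at CT9.97 and Bhlhe40 one of 1.55 (1.31 to 1.82) at CT6.68, with adjusted p = 0.0853 and 0.115 in the marker fit. Rora, an activator of Arntl, had a fold of 1.11 (1.03 to 1.19) and did not pass (adjusted p = 0.258), while the marker fit called it with adjusted p = 0.0261.

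**Figure D3:**
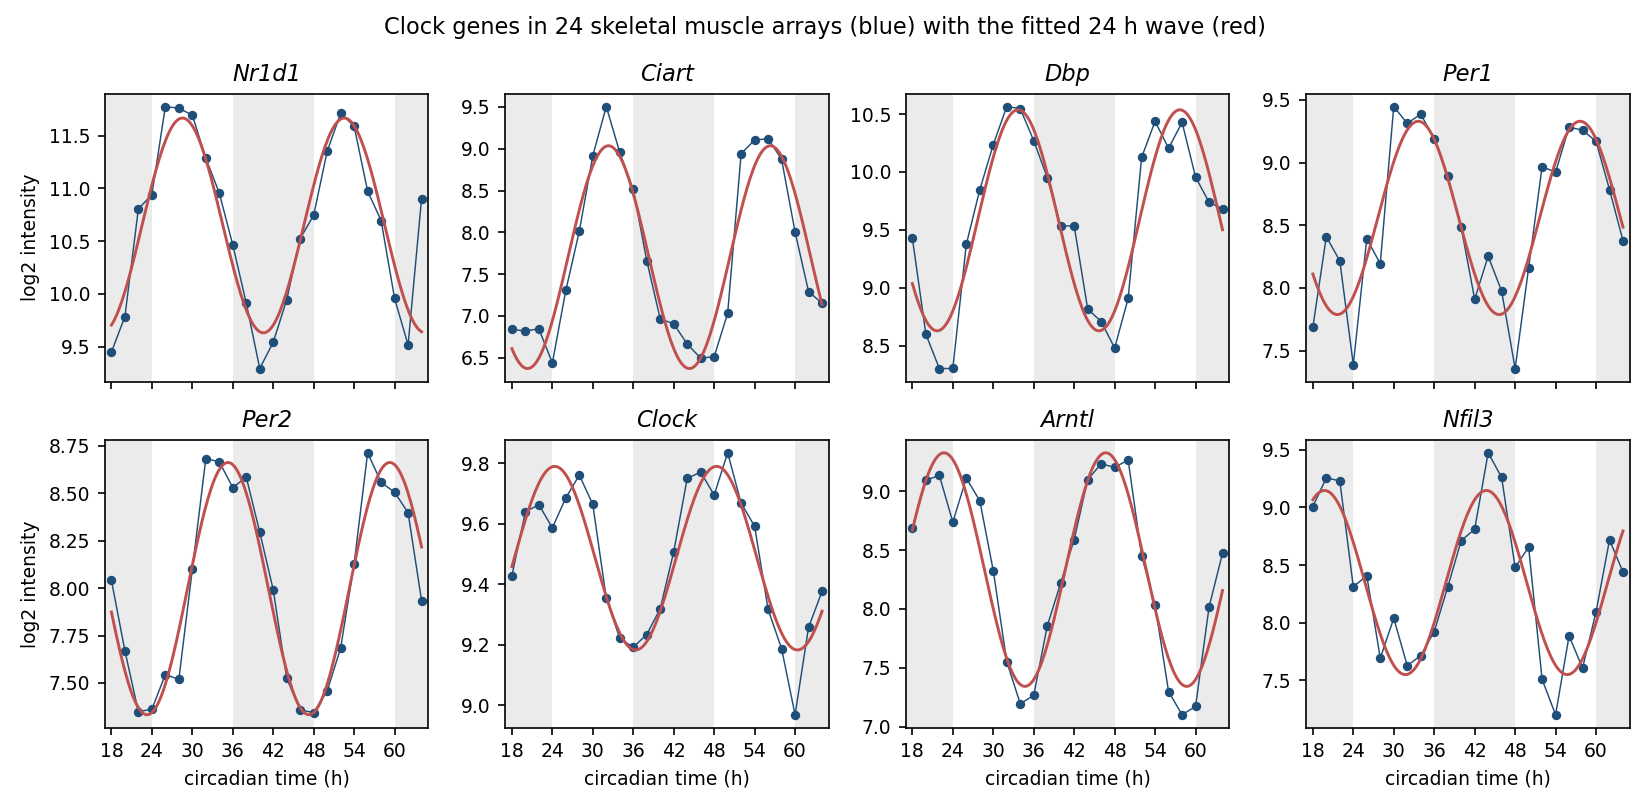
Log2 intensity of 8 clock genes on the 24 skeletal muscle arrays (blue points, x axis in circadian time, subjective night shaded) with the fitted 24 h wave (red). Nr1d1 peaks at CT4.54, Ciart at CT8.32, Dbp and Per1 near the end of the subjective day, Per2 at CT11.3, Nfil3 at CT19.7, Arntl at CT22.7 and Clock at CT0.351.

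Of 14 clock output genes 11 were called (78.6%, against 5.12% of all genes), 10 of them also in the marker fit. Dbp (probe set 10553092, chromosome 7 from 45705100 to 45710203), a transcription factor under direct E-box control, ranged from 8.30 at CT22 to 10.56 at CT32, with a median of 9.71, and had a fold of 3.75 (3.03 to 4.65) and a peak at CT9.68 (SE 0.299 h, adjusted p = 1.34e-08). Nfil3, which represses at the same D-boxes, ran nearly opposite, from 7.20 at CT54 to 9.47 at CT44, with a median of 8.36, and had a fold of 3.03 (2.47 to 3.72) at CT19.7 (adjusted p = 1.37e-07). The related factors Tef and Hlf had smaller folds of 1.35 and 1.41 at CT10.5 and CT10.7. Usp2, a ubiquitin protease, had a fold of 1.71 (1.60 to 1.84) at CT10.9, Wee1, a kinase that delays mitosis, 1.65 (1.45 to 1.88) at CT12.4, and Tspan4, a membrane protein, 1.60 (1.46 to 1.76) at CT10.3. Nampt, which makes the NAD precursor, had a fold of 1.03 (1.0 to 1.13) and did not pass (adjusted p = 0.940), and Cipc (0.248) and Pdzrn3 (0.0560) did not either.

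The contractile proteins differed by fibre type in the size of their waves. None of 15 fast contractile genes was called by limma, which is near the share of 5.12% over all genes. Of the 15, 2 had an unadjusted p under 0.05, and the rank fit called none. Their median fold was 1.01, against 1.07 over all genes. Myh4, the myosin of type IIb fibres, stayed between 13.69 and 13.81, and Atp2a1, the calcium pump of fast fibres, between 13.96 and 14.09. Myh1 (type IIx) spanned 12.29 to 13.07 and Myh2 (type IIa) 12.24 to 13.17, with the lowest value of both at CT36, where slow-fibre markers were also lowest. Of 17 slow contractile genes, on the other hand, 12 were called (70.6%, against 5.12% of all genes). All 12 peaked between CT6 and CT12, and the median fold of the 17 was 2.05.

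Myh7 (probe set 10419934, chromosome 14 from 54970684 to 54994626), the slow myosin heavy chain, ranged from 9.29 at CT46 to 12.51 at CT64, with a median of 11.50. It was lowest at CT36 and CT46 on the 2 days, and its fold was 4.06 (2.18 to 7.55) with a peak at CT9.04 (adjusted p = 0.0135). The slow troponins had folds of 4.82 (2.47 to 9.40) for Tnnc1, 4.59 (2.27 to 9.27) for Tnni1 and 3.95 (2.18 to 7.16) for Tnnt1. The light chains Myl2 and Myl3 had folds of 3.62 and 3.51, and Atp2a2, the calcium pump of slow fibres, one of 2.78. In the marker fit a marker was tested with the mean of the others. There limma called none of the 17, and their median fold was 1.09. Members that move together lose their wave in such a fit, so this count follows largely from its design. Without covariates 16 of the 17 had an unadjusted p under 0.05, while the rank fit called none. The low array of CT36 lies outside the hours of the other low arrays. With the 8 arrays of CT18 to CT24 and CT42 to CT48 left out, the adjusted p of these genes lay between 0.877 (Tnni1) and 0.977 (Myl3) for the 7 named above. Those 8 are among the 9 arrays low in slow-fibre markers. Leaving them out takes away most of the trough, so this loss also follows largely from the choice of arrays. Whether the muscle taken at each time had the same fibre make-up was not tested.

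Of the 270 genes called above 1.5-fold, 9 were lymphocyte markers and 6 adipocyte markers. Of 18 lymphocyte markers 12 were called (66.7%, against 5.12% of all genes), with peaks between CT18 and CT24. In the marker fit limma called none, which follows largely from holding the mean of the other members. Without covariates all 18 had an unadjusted p under 0.05, and the rank fit called 2. Cxcl13, the chemokine that draws B cells into lymphoid follicles, ranged from 6.66 at CT36 to 11.55 at CT46, with a median of 7.12, and had a fold of 12.3 (5.59 to 27.2) at CT21.4, and of 1.45 in the marker fit (adjusted p = 0.804). The B-cell genes Cd79b, Ms4a1 and Bank1 had folds of 5.27, 5.25 and 4.84, and Ptprc, present on all white blood cells, one of 4.04. Cxcl13 lay between 9.40 and 11.55 on the 7 arrays of CT20 to CT24 and CT42 to CT48 and between 6.66 and 7.42 on the other 17. Bank1 lay between 6.95 and 8.77 on the same 7 and between 5.45 and 5.82 on the rest. These 7 arrays are the ones grouped above by their lymphocyte and adipocyte markers. Both genes were named for a large fold or a small p in these data, so the gaps follow largely from these choices.

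Of 13 adipocyte markers 8 were called (61.5%, against 5.12% of all genes), also with peaks between CT18 and CT24, and 3 in the marker fit. Adipoq, the hormone adiponectin of fat cells, ranged from 7.10 at CT38 to 9.92 at CT24, with a median of 7.84 (fold 3.26, interval 1.91 to 5.57, 1.20 in the marker fit with adjusted p = 0.722), and Retn had a fold of 3.33 (1.32 in the marker fit). Fatty acid synthase Fasn was highest at CT24 and CT48 with a fold of 3.78 (2.69 to 5.31) at CT21.7. Its wave shrank to 1.76 in the marker fit, where it was still called (adjusted p = 0.00113), and it was not called without the arrays of CT18 to CT24 and CT42 to CT48 (adjusted p = 0.318). The brown fat marker Ucp1 and its companions did not vary along with them: the mean of 5 brown adipocyte markers lay between 5.80 and 6.05.

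**Figure D4:**
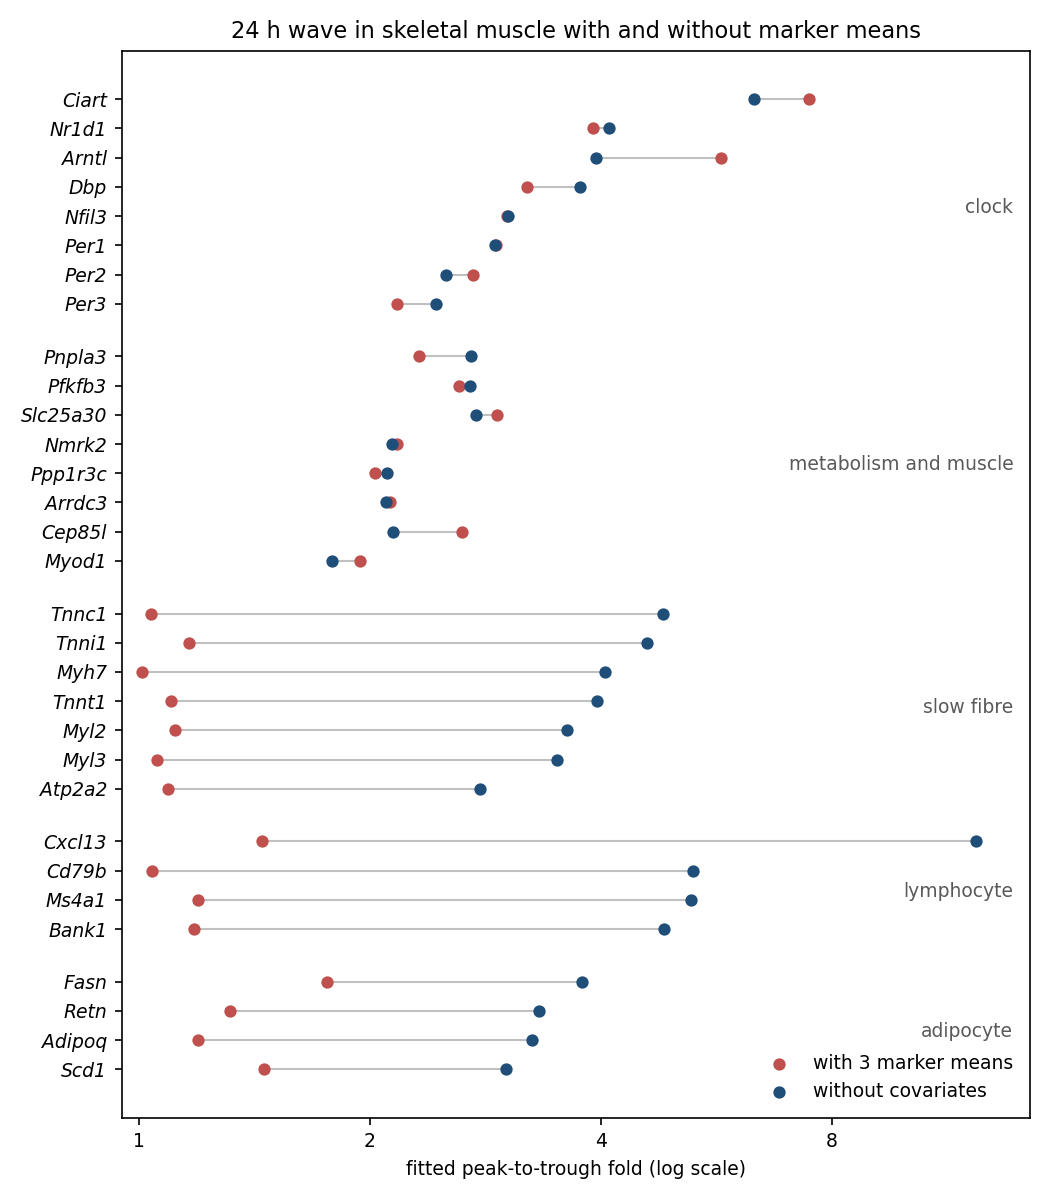
Fitted peak-to-trough fold (log axis) of 31 genes in skeletal muscle without covariates (blue) and with the lymphocyte, adipocyte and slow-fibre means as covariates (red), grouped by function. All 16 clock, metabolic and muscle genes have folds of 1.94 or more with the covariates. Each of these 16 was also called with the covariates, so their kept folds follow from which genes are drawn. Called genes that this fit did not keep, such as Cry1, Cry2 and Lmod2, are not drawn. The 7 slow-fibre genes come down to between 1.01 and 1.16 and the 4 lymphocyte genes to between 1.04 and 1.45. Genes that move with the covariates lose their wave in this fit by its design.

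Of 24 myogenic regulators 7 were called (29.2%, against 5.12% of all genes), 6 of these also in the marker fit, which called 1.77% of all genes. Of the 7, 6 peaked between CT18 and CT24, where 50.1% of all called genes peaked. Myod1 (probe set 10553256, chromosome 7 from 46376474 to 46379092), the factor that commits cells to muscle, ranged from 8.06 at CT54 to 9.41 at CT18, with a median of 8.65 and was highest at CT18 and CT42. Its fold was 1.79 (1.52 to 2.11) at CT18.2 (SE 0.526 h, adjusted p = 0.000107), with 1.94 in the marker fit. Myf6, the related factor of mature fibres, ranged from 11.35 at CT28 to 11.97 at CT42, with a median of 11.66 (fold 1.28, interval 1.18 to 1.39, peak CT16.9, adjusted p = 0.000806). Tead4, a partner of the YAP coactivator, had a fold of 1.41 (1.27 to 1.57) at CT23.3, Eya1 1.20 (1.11 to 1.29) at CT23.7, and Smad3 and Smad7, which transmit and restrain TGF-beta and myostatin signals, 1.37 (1.25 to 1.49) at CT22.8 and 1.26 (1.13 to 1.40) at CT18.9. Id2, an inhibitor of Myod1's protein family, had a fold of 1.42 (1.23 to 1.64) and was the member not kept (adjusted p = 0.644 in the marker fit).

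Of 26 genes of the Z disc and sarcomere scaffold 3 were called (11.5%, against 5.12% of all genes), and 1 of these, Tcap, in the marker fit. Tcap (probe set 10380887, chromosome 11 from 98383811 to 98384953), which caps the ends of titin, ranged from 10.89 at CT24 to 11.61 at CT52, with a median of 11.34, and had a fold of 1.44 (1.29 to 1.60) at CT11.1 (adjusted p = 0.000196, 0.0337 in the marker fit, 0.114 without CT18 to CT24 and CT42 to CT48). Lmod2, which lengthens actin filaments, had a fold of 1.91 (1.44 to 2.54) at CT10.4 that the marker fit did not keep (adjusted p = 0.346). None of 20 genes of excitation and calcium release was called by limma (5 at an unadjusted p under 0.05, none by ranks). At the neuromuscular junction Musk, the receptor that clusters acetylcholine receptors, was the 1 called gene of 15, or 6.67% (fold 1.34, interval 1.18 to 1.52, CT12.6, adjusted p = 0.0126, 0.152 in the marker fit).

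In glucose handling most of the called genes were regulators. Pfkfb3 (probe set 10480035, chromosome 2 from 11471430 to 11554071), which makes an activator of phosphofructokinase, ranged from 9.25 at CT40 to 11.69 at CT52, with a median of 10.56. It was highest at CT28 and CT52, with a fold of 2.70 (2.05 to 3.57) at CT4.13 (SE 0.521 h, adjusted p = 9.42e-05, 0.000870 in the marker fit). Among 17 genes of glycolysis and lactate it was 1 of 3 called (17.6%, against 5.12% of all genes). The others were Pfkfb4 at 1.27 and the slow-fibre lactate dehydrogenase Ldhb at 1.72, neither kept by the marker fit (adjusted p = 0.119 and 0.998). Of 20 genes of glucose uptake and glycogen 2 were called (10%). Ppp1r3c (probe set 10467206, chromosome 19 from 36731731 to 36736604), which brings a phosphatase to glycogen and so favours its storage, ranged from 10.63 at CT54 to 12.18 at CT44, with a median of 11.70 (fold 2.11, interval 1.80 to 2.46, CT19.4, adjusted p = 1.12e-06). Tbc1d1, which holds back glucose transporter vesicles until insulin or contraction acts, had a fold of 1.58 (1.33 to 1.87) at CT19.2 (adjusted p = 0.00340), and both were called in the marker fit. At the gate to the mitochondria Pdk4, which shuts pyruvate dehydrogenase, peaked at CT4.77 (fold 1.59, interval 1.28 to 1.97, adjusted p = 0.0179) and Pdp1, which opens it, at CT10.0 (fold 1.45, interval 1.34 to 1.58, adjusted p = 2.96e-06), and both were kept.

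Few genes of fat oxidation and respiration were called in the marker fit. That fit called only 1.77% of all genes, so few calls would stand in lists of this size. Of 24 genes of fatty acid uptake and oxidation 6 were called (25%, against 5.12% of all genes), and 1 in the marker fit. Of the 6, 5 peaked between CT6 and CT12 beside the slow-fibre genes. Fabp3, the fatty acid binding protein of muscle, had a fold of 1.54 (1.31 to 1.82) at CT8.17 and of 1.14 in the marker fit (adjusted p = 0.164). The 1 kept member, Fabp4, is itself an adipocyte marker. None of 27 genes of the respiratory chain and ATP synthase was called by limma (5 at an unadjusted p under 0.05, none by ranks), and 1 of 18 of the tricarboxylic acid cycle, Idh2 (fold 1.58, interval 1.27 to 1.97, 1.04 in the marker fit). Since 5.12% of all genes were called, none of 27 and 1 of 18 lie near that share. The median folds of the 2 lists were 1.07 and 1.06, against 1.07 over all genes. Nrip1, a corepressor that restrains oxidative genes, was the 1 of 3 called among 23 genes of mitochondrial biogenesis and dynamics that the marker fit kept, and it ranged from 8.73 at CT24 to 9.61 at CT36, with a median of 9.17 (fold 1.59, interval 1.45 to 1.73, CT12.3, adjusted p = 2.38e-07, 9.57e-07 in the marker fit).

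Among 26 genes of lipid droplets and triglyceride turnover 11 were called (42.3%, against 5.12% of all genes) and 3 of these kept. Pnpla3 (probe set 10425822, chromosome 15 from 84167776 to 84189521), a lipid droplet enzyme of the patatin family, ranged from 7.17 at CT56 to 8.72 at CT20, with a median of 7.87. It was highest at CT20 and CT48 and lowest at CT32 and CT56, with a fold of 2.71 (2.40 to 3.07) at CT20.5 (SE 0.230 h, adjusted p = 1.2e-10). Pnpla3 kept a fold of 2.32 in the marker fit and was called without the arrays of CT18 to CT24 and CT42 to CT48 (adjusted p = 1.01e-05). G0s2, an inhibitor of the main triglyceride lipase, had a fold of 1.51 (1.28 to 1.78) at CT17.0 and was kept as well (adjusted p = 0.0318). The synthesis genes Scd1, Acly and Acaca, with folds of 3.01, 1.71 and 1.56, all peaked between CT21 and CT23 beside the adipocyte markers and missed in the marker fit (adjusted p = 0.0501, 0.376 and 0.686). Adipocyte RNA was high on the same arrays, and its part in these waves was not tested further.

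**Figure D5:**
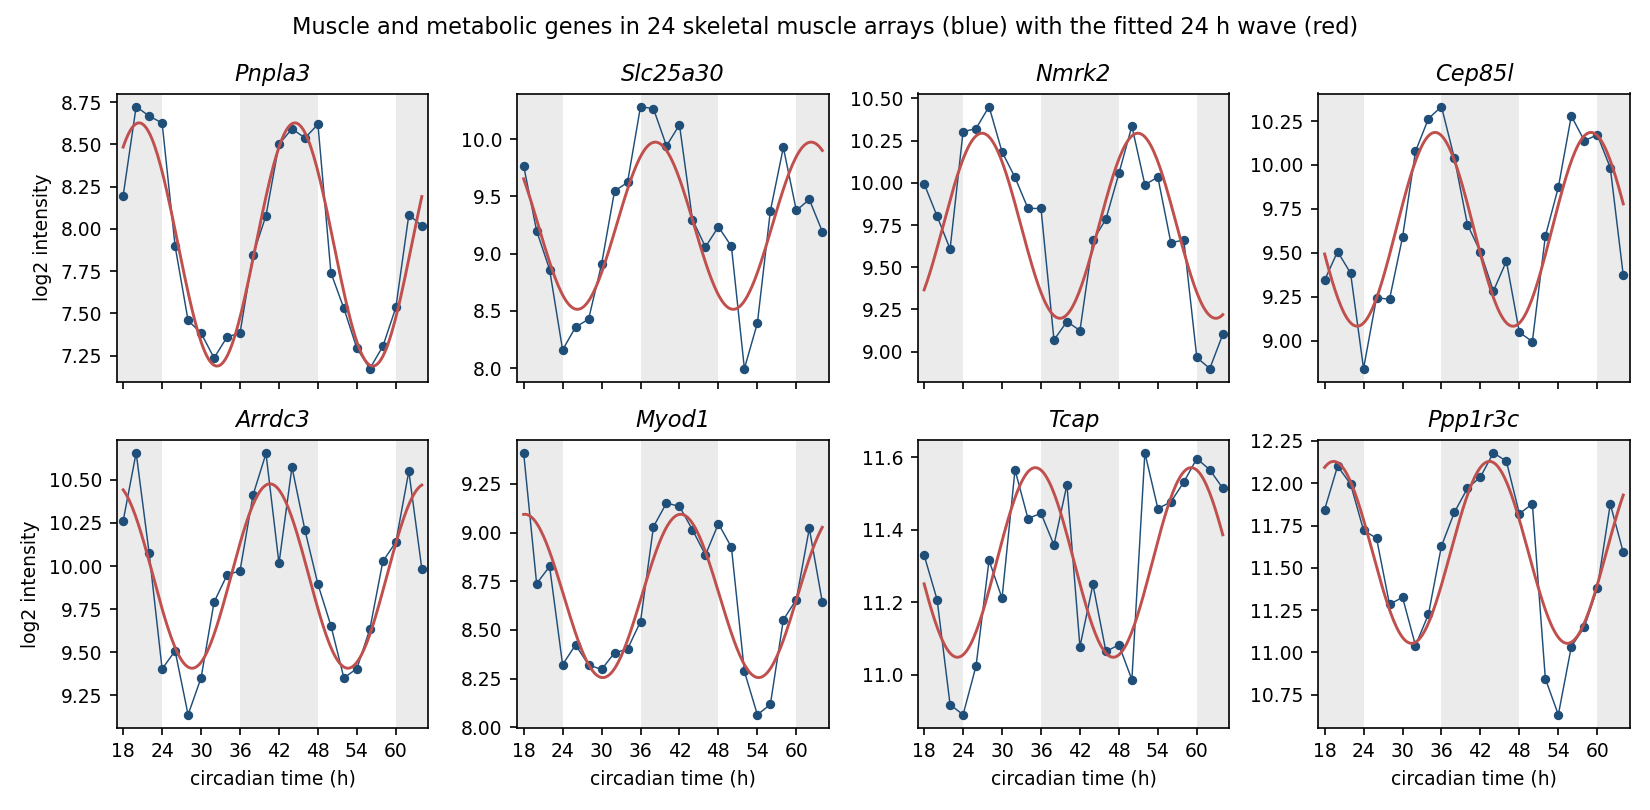
Log2 intensity of 8 genes of metabolism and muscle on the 24 skeletal muscle arrays (blue points, x axis in circadian time, subjective night shaded) with the fitted 24 h wave (red). Pnpla3 spans 7.17 at CT56 to 8.72 at CT20, Nmrk2 is highest at CT28 and CT50, Cep85l at CT36 and CT56, and Tcap has a smaller wave of 1.44-fold.

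Of 28 genes of amino acid and purine metabolism 4 were called (14.3%, against 5.12% of all genes), all kept by the marker fit. Glul (probe set 10374453, chromosome 1 from 153899929 to 153909723), glutamine synthetase, ranged from 10.74 at CT54 to 11.83 at CT18, with a median of 11.37, and had a fold of 1.79 (1.60 to 2.01) at CT15.8 (SE 0.369 h, adjusted p = 3.95e-07). The transporters of neutral amino acids followed at other times, Slc7a8 with a fold of 1.70 (1.48 to 1.96) at CT13.0, Slc38a2 with 1.60 (1.43 to 1.79) at CT19.4 and Slc38a4 with 1.39 (1.23 to 1.57) at CT23.9. In insulin signalling 4 of 22 were called (18.2%) and Pik3r1, the regulatory subunit of phosphoinositide kinase, was kept. Pik3r1 ranged from 9.60 at CT54 to 10.54 at CT62, with a median of 10.05 (fold 1.68, interval 1.51 to 1.88, CT18.4, adjusted p = 8.62e-07). The insulin receptor substrates peaked apart from each other, Irs1 at CT21.0 (fold 1.67, interval 1.38 to 2.02) and Irs2 at CT5.94 (fold 1.39, interval 1.22 to 1.57), and neither passed in the marker fit (adjusted p = 0.0549 and 0.0818).

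Of 19 genes known to respond to glucocorticoids 11 were called (57.9%, against 5.12% of all genes) and 6 kept. Some of them, such as Per1 and Pik3r1, stand in other lists too. Tsc22d3, the leucine zipper protein induced by glucocorticoids, ranged from 10.30 at CT26 to 10.89 at CT18, with a median of 10.66 (fold 1.36, interval 1.24 to 1.5, CT15.7, adjusted p = 0.000383). Cebpb, Fkbp5 and Zbtb16, a transcription factor, a chaperone of the receptor and a zinc finger repressor, peaked at CT14.4, CT16.1 and CT18.2 with folds of 1.39, 1.51 and 1.51. Fkbp5 missed in the marker fit (adjusted p = 0.0770). Genes of protein breakdown were spread over the day: of 26 measured, 6 were called (23.1%). Of these 1, Fbxo30, a ubiquitin ligase subunit of wasting muscle (fold 1.37, interval 1.23 to 1.52, CT5.29), was kept. The ligases Fbxo32 and Trim63 peaked at CT0.188 and CT22.5 with folds of 1.38 (1.19 to 1.60) and 1.26 (1.13 to 1.41), and their regulator Foxo1 at CT17.0 with 1.33 (1.18 to 1.5) (adjusted p = 0.255, 0.210 and 0.0565 in the marker fit).

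Of 19 genes of angiogenesis and hypoxia 6 were called (31.6%, against 5.12% of all genes) and 4 kept. Of 22 genes of the extracellular matrix 3 were called (13.6%) and 3 kept. The 9 called genes peaked between CT21.5 (Vhl) and CT3.27 (Col15a1). Kdr, the main receptor for VEGF on vessel lining, ranged from 8.0 at CT60 to 9.32 at CT28, with a median of 8.72 (fold 1.69, interval 1.44 to 1.99, CT1.76, adjusted p = 0.000314). The basement membrane collagens Col4a1, Col4a2 and Col15a1 had folds of 1.30, 1.30 and 1.36 with peaks at CT2.09, CT2.74 and CT3.27. The mean of 10 endothelium markers, 5 of which were called, lay between 8.78 at CT36 and 9.23 at CT28, and their part in the collagen waves was not tested. The collagens of fibroblasts Col1a1, Col1a2 and Col3a1 did not pass (adjusted p = 0.582, 0.506 and 0.534).

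None of 19 autophagy genes was called by limma (2 at an unadjusted p under 0.05, none by ranks) and none of 11 kinases and ligases of clock proteins (1 at an unadjusted p under 0.05, none by ranks). Set against 5.12% of all genes, the shares called were 11.1% of 18 heat shock and cold response genes, 15% of 20 genes of endoplasmic reticulum stress, 15.8% of 19 immediate early genes, 9.52% of 21 antioxidant genes and 11.1% of 18 secreted muscle factors. The 2 called heat shock genes were Hsp90aa1 at 1.39-fold and Dnaja1 at 1.30-fold, neither kept. Of the 3 called genes of endoplasmic reticulum stress Herpud1 was kept (fold 1.16, interval 1.10 to 1.22, CT13.3), and without CT18 to CT24 and CT42 to CT48 it did not pass (adjusted p = 0.0693). Of the 2 called antioxidant genes Nfe2l2, which encodes the regulator NRF2, was kept with a fold of 1.27 (1.18 to 1.36) at CT10.2 (adjusted p = 0.0545 without those 8 arrays). Utrn, the relative of dystrophin, was the 1 called gene of 17 of its complex (fold 1.26, interval 1.15 to 1.37, CT1.13), Nop56 the 1 of 20 of ribosome biogenesis, and Nr4a1, an early response gene of contracting muscle, 1 of 3 immediate early genes called (fold 1.53, interval 1.32 to 1.76, CT7.05, adjusted p = 0.0968 without those 8 arrays). The 2 called secreted factors were Vegfa and Angptl4. Of genes named elsewhere as called in the marker fit, Hlf, Pdk4, Smad7, Slc38a4, Fabp4 and Retn did not pass without those 8 arrays either (adjusted p = 0.139, 0.174, 0.142, 0.0615, 0.224 and 0.576).

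Across all genes, 171 were called in each of 4 fits, namely the fit without covariates, the marker fit, the rank fit and the fit without CT18 to CT24 and CT42 to CT48. Named here are genes with large folds among them outside the clock lists, and most were chosen after their values were seen. Slc25a30 (probe set 10421648, chromosome 14 from 75757534 to 75787037), a mitochondrial carrier, ranged from 8.0 at CT52 to 10.28 at CT36, with a median of 9.27, and had a fold of 2.75 (2.05 to 3.69) at CT14.3 (SE 0.539 h). Nmrk2 (probe set 10371082, chromosome 10 from 81198170 to 81202265), the muscle kinase that turns nicotinamide riboside towards NAD, ranged from 8.90 at CT62 to 10.45 at CT28, with a median of 9.83, and had a fold of 2.14 (1.76 to 2.60) at CT2.92 (SE 0.477 h). Slc25a30 was lowest at CT24 and CT52 and Nmrk2 highest at CT28 and CT50, so the waves of both ran nearly opposite.

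Cep85l (probe set 10369102, chromosome 10 from 53273441 to 53379883), a centrosomal protein, ranged from 8.84 at CT24 to 10.33 at CT36, with a median of 9.55, and had a fold of 2.15 (1.85 to 2.50) at CT11.0 (SE 0.367 h), and was called in no other tissue. Arrdc3 (probe set 10406407, chromosome 13 from 80883384 to 80896042), an arrestin relative that lowers beta-adrenergic receptors, ranged from 9.14 at CT28 to 10.66 at CT20, with a median of 9.98, and had a fold of 2.10 (1.76 to 2.50) at CT16.6 (SE 0.438 h). Around CT22 came Pim1, a survival kinase (fold 2.30, interval 2.05 to 2.58), Wsb1, a ubiquitin ligase subunit (2.15, interval 1.88 to 2.46), the deubiquitinase Otub2 (1.98, interval 1.66 to 2.35) and Dyrk2, a kinase (1.82, interval 1.63 to 2.04). In the subjective day came Coq10b, a ubiquinone binding protein (fold 2.30, interval 1.99 to 2.64 at CT8.56), and Gadd45g, a gene induced by stress (2.20, interval 1.69 to 2.86 at CT9.16), and around nightfall Angptl7 (2.70, interval 2.05 to 3.56 at CT12.0), Mid1ip1, which activates acetyl-CoA carboxylase (1.99, interval 1.74 to 2.28 at CT13.1), and the oxygenase Fmo2 (1.95, interval 1.73 to 2.19 at CT14.0). The carriers Slc16a9 and Slc25a36 had folds of 1.97 at CT20.0 and 1.77 at CT21.9.

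The wave of skeletal muscle differed from that of heart for 997 of 19938 genes (5.0%) by limma's moderated F test of the interaction, and for 311 with the 3 marker means of muscle as covariates, an alternative added after seeing the data. Heart had its own wave for 1723 genes (8.64%). Of the 1020 genes called in muscle 352 were also called in heart, which is 34.5% of the muscle list and 20.4% of the heart list, and 238 of the 352 peaked within 3 h in both. Of 13 core clock genes 7 differed. Nr1d1 had a fold of 4.10 (3.16 to 5.31) at CT4.54 in muscle and 5.90 (4.98 to 7.0) at CT6.77 in heart (adjusted p of the difference = 0.000175), and Arntl 3.95 (3.30 to 4.72) in muscle and 7.67 (6.51 to 9.03) in heart (0.000589). Tef had 1.35 (1.24 to 1.46) in muscle and 2.23 (2.01 to 2.48) in heart (2.66e-07). For Per1 (adjusted p = 0.964) and Clock (0.579) no difference passed, with folds of 2.91 (2.30 to 3.68) and 1.52 (1.41 to 1.65) in muscle and of 2.86 (2.19 to 3.73) and 1.65 (1.54 to 1.77) in heart.

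Larger in muscle were the waves of Pnpla3, with a fold of 2.71 in muscle and 1.19 in heart (adjusted p = 3.8e-10, 1.89e-06 with the marker means), Cep85l, with 2.15 in muscle and 1.17 in heart (2.53e-08, 9.24e-08 with the marker means), and Arrdc3, with 2.10 in muscle and 1.31 in heart (5.25e-08, 1.87e-06 with the marker means). Larger in heart were those of Tcap, with 1.44 in muscle and 3.33 in heart (adjusted p = 2.72e-08, 2.15e-06 with the marker means), Adam19, a membrane protease, with 1.37 in muscle and 2.98 in heart (2.03e-08), and Slc41a3, a magnesium transporter, with 1.30 in muscle and 2.69 in heart (2.53e-08). Tmem171 did not pass in muscle, with a fold of 1.04, and had one of 2.75 in heart (adjusted p of the difference = 3.8e-10). Epha4, an ephrin receptor, did not pass in muscle either, with 1.07 in muscle and 1.75 in heart (2.28e-08). The heart arrays of CT26, CT50, CT52 and CT64 stood apart in hepatocyte markers or in Myh1 and Myh2.

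Against the mean wave of the other 11 tissues, 1761 genes (8.83%) differed, and 412 with the marker means as covariates. This test fitted the arrays of all tissues together, with a shared estimate of the spread for each gene. Its p-values therefore do not rest on the scatter of the muscle arrays alone. They cannot be set beside the p-values of the fits within muscle. The 8 smallest p-values belonged to Nmrk2 (adjusted p = 8.08e-28), Fasn (1.18e-25), Atp2a2 (4.85e-25), Bank1 (4.85e-25), Slc25a30 (2.73e-24), Cep85l (3.78e-24), Slc25a36 (6.45e-23) and Glul (9.49e-23). With the marker means as covariates, Nmrk2, Slc25a30, Cep85l, Slc25a36 and Glul kept adjusted p-values of 7.93e-30, 1.36e-23, 3.44e-19, 3.44e-19 and 1.3e-17. Atp2a2 (0.746) and Bank1 (1.0) did not pass there, and Fasn came to 0.0332. Atp2a2 is itself a slow-fibre marker, and in this comparison its own values stayed in the mean held. Its loss there therefore follows largely from the design of that fit. In their own tissues' fits, Nmrk2 and Slc25a30 were each called in 1 tissue other than muscle, while Glul was called in 8.

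A second wave of 12 h was called for 1393 genes (6.99%) in a model with 24 h and 8 h waves. Markers of other cell types moved with it: 9 of 18 lymphocyte, 5 of 8 keratinocyte and 5 of 13 adipocyte markers were called for 12 h, and their part in the count was not tested. The count was the least steady of those given here, with 10 genes left without the 8 arrays that stand apart and 440 to 2080 when 1 array was left out. Lyz1, a lysozyme, had the smallest p (12 h fold 1.65, adjusted p = 0.00663, 0.0784 in the marker fit), followed by Hyal5 (1.45-fold, 0.00736), Padi2 (1.31-fold, 0.00813) and Nyx (1.63-fold, 0.00913). Of these, Hyal5, a hyaluronidase of sperm, lay at a median log2 of 5.10, below the median gene level of 6.87.

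Between the days, 413 genes (2.07%) were lower on day 2 (CT42 to CT64) than on day 1 (CT18 to CT40) and 9 (0.0451%) were higher, in a fit that held the 24 h wave. Most of the fallen genes are genes of brain. Snap25 (probe set 10476512, chromosome 2 from 136713439 to 136782428), which fuses vesicles at the synapse, lay from 6.26 to 6.65 on the 12 arrays of day 2 and from 9.02 to 9.87 on the 12 arrays of day 1. Its difference was -3.05 (95% interval -3.20 to -2.89, adjusted p = 1.42e-20) on the log2 scale. Vsnl1, a calcium sensor of neurons, averaged 6.12 ± 0.16 on day 2 and 9.63 ± 0.21 on day 1 (SD over 12 arrays each), and Aldoc, the aldolase of astrocytes, 6.29 ± 0.24 on day 2 and 8.83 ± 0.21 on day 1. For each of the 3 the days did not overlap, and the step fell between CT40 and CT42.

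Of the 413 genes that fell, 370 (89.6%) had their highest tissue mean in brainstem, cerebellum or hypothalamus, against 4791 of all 19938 genes (24.0%). The median fall was small, with a log2 difference of -0.27, and 17 genes fell by more than 1 log2 unit. Among those 17, the neurofilament gene Nefl averaged 5.65 ± 0.17 on day 2 and 7.64 ± 0.29 on day 1 and the tubulin Tubb4a 5.92 ± 0.17 on day 2 and 7.57 ± 0.17 on day 1. The myelin gene Mbp averaged 7.89 ± 0.15 on day 2 and 8.84 ± 0.16 on day 1. The mean of 7 nerve and Schwann cell markers lay between 7.29 and 7.49 on day 2 and between 7.55 and 7.87 on day 1. Genes of 1 brain region gave a mixed picture: Slc6a5, the glycine transporter of brainstem and spinal cord, averaged 6.02 ± 0.16 on day 2 and 6.74 ± 0.12 on day 1, while Pcp2 of cerebellar Purkinje cells averaged 6.15 ± 0.09 on day 2 and 6.18 ± 0.13 on day 1, Gabra6 of cerebellar granule cells 4.97 ± 0.06 on day 2 and 4.97 ± 0.06 on day 1 and Hcrt of the hypothalamus 6.84 ± 0.08 on day 2 and 6.79 ± 0.15 on day 1. These levels lay far below those of the brain arrays, where Snap25 averaged 12.77 in brainstem, 12.60 in cerebellum and 12.57 in hypothalamus, although a level set across tissues also depends on how the authors normalized them. Ttr, made by choroid plexus and liver, averaged 6.64 ± 0.23 on day 2 and 9.12 ± 0.44 on day 1, and Alb, the albumin of liver, 6.64 ± 0.35 on day 2 and 8.21 ± 1.71 on day 1. Hepatocyte markers as a list had means of 6.04 to 6.30 on day 2 and of 6.37 to 7.80 on day 1. Ttr and Alb are members of that list and were the only 2 of its 9 measured genes among the fallen (limma).

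The 2 days also differ in time spent in darkness and in the mice used, so day, mice and any difference in handling cannot be told apart. None of the 14 skeletal muscle fibre markers and none of the 17 slow contractile genes was among the fallen genes (limma). With 2.07% of all genes fallen, a count of none is near that share in lists of this size. The mean of the 14 fibre markers lay between 13.41 and 13.49 over both days. The 24 h calls were nearly the same in number with the mean of the 20 brain genes as a covariate, 1075 genes, an alternative added after seeing the data. Those higher on day 2 changed little, such as Zfp617 with a log2 difference of 0.26 (95% interval 0.14 to 0.38, adjusted p = 0.00842) and Fkbp7, a folding enzyme, with 0.20 (95% interval 0.11 to 0.30, adjusted p = 0.0130).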

How the data were processed

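Expression Console (Affymetrix) and GCRMA are named per the submitters' processing notes, with versions not given in the sources used here. The values deposited are linear intensities of 35556 probe sets, from 6.9 to 45307.8, with array medians of 97.1 to 105.9 in skeletal muscle. The deposited intensities were taken to log2 here with no pseudocount, since none was 0. Of the probe sets, 21789 carried 1 gene symbol, 1621 several and 12146 none. Those with 1 symbol gave 19938 genes, 999 of them represented by the probe set with the highest mean of several. Positions come from RefSeq GRCm38.p6, which held 21698 of the gene identifiers and lacked 91. Dim genes were kept in.

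Waves were fitted with limma 3.58.1 in R 4.3.3 (cosine and sine of 24 h, moderated F test with trend, Benjamini-Hochberg over all genes, threshold 0.05), after a test on simulated data. Differences from heart were tested on 48 arrays and from the other tissues on 288, 12 h waves with 24 h and 8 h pairs, and the day term with the 24 h pair. In the tissue comparisons each gene had a shared estimate of the spread over all arrays of the fit. Figures and tables used Python 3.11.15. Alternatives were marker means, ranks, left-out arrays, other normalization and other variance models. An array stands apart if a marker mean is more than 5 scaled median absolute deviations, and at least 1 log2 unit, away from the median over the tissue's arrays, or if its median correlation is lower by 5 such deviations and 0.003. Lists are described by counts and medians. The fits without the late-night arrays (CT18 to CT24 and CT42 to CT48), with keratinocyte and hepatocyte means, with the brain mean and with the marker means in the tissue comparisons, and the list of brain genes, were added after seeing the data.

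The members, the 31 function lists and the 20 marker lists were chosen with earlier results of these data known. Named genes are all measured clock and clock output genes, the 16 rhythmic genes with the largest fold above the tissue median with peaks of both days within 4 h, 5 for each 6 h of the day, up to 5 called members per list, fibre and marker genes, 8 genes with the smallest p per tissue comparison, and 4 each for 12 h waves and each direction of the day term. Exceptions are marked in the text.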

Additional observations from a re-analysis of the deposited data

Results flagged for a closer look

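The wave of skeletal muscle differed by an interaction test from that of heart for 997 genes and from the mean of the other 11 tissues for 1761. Against heart, the smallest adjusted p-values were those of Pnpla3 (3.8e-10), Tmem171 (3.8e-10), Adam19 (2.03e-08), Epha4 (2.28e-08), Cep85l (2.53e-08), Slc41a3 (2.53e-08), Tcap (2.72e-08) and Arrdc3 (5.25e-08). Against the other tissues they were those of Nmrk2 (8.08e-28), Fasn (1.18e-25), Atp2a2 (4.85e-25), Bank1 (4.85e-25), Slc25a30 (2.73e-24), Cep85l (3.78e-24), Slc25a36 (6.45e-23) and Glul (9.49e-23). Atp2a2, Bank1 and Fasn moved with slow-fibre, lymphocyte and adipocyte markers on the same arrays. The spread in these tests was shared over all arrays of the fit, so the p-values do not rest on the scatter of the muscle arrays alone.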

How the results depend on the processing

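The 24 h count of 1020 genes, 270 of them above 1.5-fold, came to 408 and 114 with the lymphocyte mean as a covariate, 348 and 106 with the adipocyte mean, 434 and 111 with the slow-fibre mean, and 353 and 115 with all 3. It came to 344 and 115 by ranks, 384 and 111 without the 8 arrays that stand apart, 360 and 129 without CT18 to CT24 and CT42 to CT48 (added after seeing the data), 161 and 105 from the first day alone and 216 and 113 from the second. Array weights gave 2085 and 309. Leaving out 1 array gave 784 (without CT22) to 1484 (without CT24), and 216 to 297 above 1.5-fold. Other normalization, variance models, probe rules and covariates kept the count between 799 and 1434. The count against heart, 997, came to 339 without the arrays apart, 222 by ranks, 442 without the late-night arrays and 311 with the 3 means, and that against the other tissues, 1761, to 813, 562, 744 and 412. The 12 h count, 1393, came to 538, 10 and 808 with the 3 means, without the arrays apart and by ranks, and to between 440 (without CT56) and 2080 (without CT48) when 1 array was left out, with 634 without CT20, 520 without CT24, 563 without CT32, 898 without CT40, 728 without CT44, 556 without CT60, 815 without CT62 and 794 without CT64. The day count, 422, stayed between 306 and 500 and was 500 with clock time as a block, which pairs the 2 days. Of the 596 genes in function lists, 116 were called, against 64 with the 3 means, 61 by ranks, 59 without the arrays apart and 55 without the late-night arrays. The fitted peak of some named genes turned by over 6 h. With the adjusted p there, these were Ccr7 (0.916), Cd22 (0.790), Cd37 (0.914), Cd53 (0.751), Cr2 (0.829) and Il7r (0.954) with the lymphocyte mean, Adipoq (0.906), Fabp4 (0.00125) and Lep (0.919) with the adipocyte mean, Ankrd2 (0.758), Casq2 (0.566), Ldhb (0.978), Myoz2 (0.841) and Tnni1 (0.896) with the slow-fibre mean, Adipoq (0.722), Ankrd2 (0.874), Casq2 (0.866), Ccr7 (0.999), Cd22 (0.927), Cd37 (0.983), Cd53 (0.971), Cr2 (0.971), Il7r (0.999), Ldhb (0.998), Lep (0.991), Lyz1 (0.967), Myl2 (0.815), Myoz2 (0.965), Ptprc (0.999) and Tnni1 (0.940) with all 3, Adipoq (0.519), Ankrd2 (0.929), Atp2a2 (0.962), Casq2 (0.848), Cd22 (0.858), Cd37 (0.557), Cd53 (0.661), Cd79b (0.934), Idh2 (0.992), Lcp1 (0.703), Ldhb (0.974), Lep (0.75), Lyz1 (0.317), Myh7 (0.960), Myl2 (0.956), Myl3 (0.977), Myoz2 (0.956), Plin1 (0.548), Ptprc (0.729), Tnnc1 (0.949), Tnni1 (0.877) and Tnnt1 (0.946) without the late-night arrays, and Aldoc (0.0142), Snap25 (0.0108), Tubb4a (0.0233) and Vsnl1 (0.00795) with a straight line as covariate. Aldoc, Snap25, Tubb4a and Vsnl1 step down between the days, which a straight line cannot follow. Their 24 h wave in that fit can therefore come from the line alone. The cause of the other changes was not tested. With 1 array per time point, small waves could not be told from the spread of the pools.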
